A study of Caenorhabditis elegans with 2 samples.

Results

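In the optimal thresholded peak list of a SEA-2 ChIP-seq experiment, which pools both replicates, 207 of 453 peaks overlapped by at least 1 bp a thresholded peak of replicate 1 or of replicate 2. These 207 are called backed peaks here, and the 246 that overlapped neither list are called unbacked. The backed peaks were chosen by overlap with lists called from the same reads, so their signal and their irreproducible discovery rate (IDR), which is low where a peak holds a like rank in the lists set side by side, are given as descriptions without tests. For background, 233 of the 82563 ranked candidates of the pooled list (0.282%) overlapped a thresholded replicate peak by the same rule. Peaks whose summit lay within 200 bp of a stronger summit were then dropped, which removed 8 peaks, 3 of them backed. Of the 445 distinct peaks, 204 were backed and 241 were unbacked. The 204 comprised 70 peaks backed by both replicates, 89 backed by replicate 1 only and 45 backed by replicate 2 only.

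The experiment had 1 group of 2 biological replicates of whole Caenorhabditis elegans, collected as young adults at 64 hours after synchronisation by bleaching and starvation at the L1 larval stage. Both were of strain OP586, which carries the transgene wgIs586, a fusion of sea-2 to TY1, EGFP and 3xFLAG tags (clone P000008_A02_13F06) with unc-119(+), in an unc-119 (tm4063) background. Chromatin was sheared by sonication and precipitated with an anti-GFP antibody, per the sample descriptions, although sea-2 is what the antibody field names. A control experiment is named in the labels but was not analysed here, and sex was not recorded. The transgene adds copies of sea-2 to the endogenous gene, both replicates came from the same strain, and the labels do not say whether the animals were grown as separate cultures. In whole animals, binding in fewer cells and weaker binding in each cell cannot be told apart, and no defining marker of stage or tissue could be checked in peak lists.

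SEA-2 has zinc fingers and belongs to the autosomal signal elements, gene products whose dose is read against that of the X chromosome when worms determine their sex, and it also regulates lin-28, a gene of developmental timing. In ChIP-seq, DNA fragments bound by a tagged protein are precipitated and sequenced, and places where reads pile up are called as peaks. Pooling replicates gives more reads than each replicate alone, so a pooled list can hold peaks that no single replicate's list reaches at the same IDR threshold. Backed and unbacked peaks divide the pooled list only by overlap with a replicate's thresholded list. The part of read number in that split was not tested.

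The sequences under 9 strong backed summits are given here with 1 strong unbacked peak for contrast. Most of the 9 were backed by both replicates and none lay in an exon, so they do not represent all backed peaks. All were read from the plus strand of WBcel235, the sequence of the ce11 assembly, 60 bp to each side of the summit or less where an exon of a protein-coding gene would have been reached. They lie at chrIII:10759201-10759306 for tasp-1, chrIV:4727992-4728112 for K08F11.1, chrV:12303600-12303704 for frm-7, chrIII:3867512-3867632 for rpl-3, chrII:11759412-11759532 for F44E5.4, chrX:9743600-9743720 for him-4, chrIV:2219547-2219667 for T04C4.3, chrIII:4282167-4282287 for sup-26, chrV:14237580-14237700 for ent-3 and chrV:13646077-13646197 for H37A05.4. Capitals mark matches, on either strand, to the B box of tRNA genes (GTTCGANNC), an internal promoter element, and to the 6-mers GAGAGA and CGCGCA, which earlier results on these data had shown to be frequent in the pooled list. Windows without capitals held none of these letters.
tasp-1 promoter, both: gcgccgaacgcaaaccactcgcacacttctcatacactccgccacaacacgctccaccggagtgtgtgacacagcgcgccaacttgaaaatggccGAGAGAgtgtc
K08F11.1 intergenic, both: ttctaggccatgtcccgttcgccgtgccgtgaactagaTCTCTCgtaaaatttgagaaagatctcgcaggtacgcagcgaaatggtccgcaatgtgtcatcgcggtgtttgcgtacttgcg
frm-7 intron with snoRNA C51F7.4, both: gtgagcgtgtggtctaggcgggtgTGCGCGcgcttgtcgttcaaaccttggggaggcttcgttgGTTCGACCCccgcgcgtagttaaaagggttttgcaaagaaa
rpl-3 promoter, both: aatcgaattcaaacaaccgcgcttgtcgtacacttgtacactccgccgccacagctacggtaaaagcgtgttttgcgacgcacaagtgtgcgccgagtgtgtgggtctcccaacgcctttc
F44E5.4 promoter, both: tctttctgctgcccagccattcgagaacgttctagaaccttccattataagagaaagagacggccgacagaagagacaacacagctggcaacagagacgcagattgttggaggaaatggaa
him-4 intron with tRNA WBGene00014333, both: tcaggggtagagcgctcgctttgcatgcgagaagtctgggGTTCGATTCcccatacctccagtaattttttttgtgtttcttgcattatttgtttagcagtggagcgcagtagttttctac
T04C4.3 intergenic, replicate 1 only: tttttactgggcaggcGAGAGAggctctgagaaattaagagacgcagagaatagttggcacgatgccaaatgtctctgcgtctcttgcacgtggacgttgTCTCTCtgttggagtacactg
sup-26 intergenic, replicate 2 only: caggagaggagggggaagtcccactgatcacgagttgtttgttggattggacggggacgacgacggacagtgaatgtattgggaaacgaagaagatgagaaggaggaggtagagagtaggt
ent-3 intergenic, replicate 2 only: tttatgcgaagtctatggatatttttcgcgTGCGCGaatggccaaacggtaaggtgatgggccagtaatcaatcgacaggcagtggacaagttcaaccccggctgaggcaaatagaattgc
H37A05.4 intergenic, unbacked: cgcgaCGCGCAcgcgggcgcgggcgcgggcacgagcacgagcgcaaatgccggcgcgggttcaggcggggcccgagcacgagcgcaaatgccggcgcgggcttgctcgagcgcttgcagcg

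The strongest backed peak had its summit 46 bp from the start of the threonine aspartase gene tasp-1, and its window held GAGAGA. The K08F11.1 window lay between protein-coding genes and also held GAGAGA, and 67.8% of the 31-mers around its summit recurred elsewhere in the genome. Around the ent-3 summit that share was 59.1%. The snoRNA window in frm-7 held both a B box and CGCGCA. The tRNA window in him-4, the hemicentin gene, held the B box inside the tRNA gene itself. The rpl-3, F44E5.4 and sup-26 windows held none of the 3 motifs.

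Peaks backed by both replicates had the highest signal in the pooled list, the authors' own peak caller value. Their median signal was 167 (range 2.45 to 394.9). Peaks backed by replicate 1 only had a median of 107.9 (8.34 to 143.9), and those backed by replicate 2 only had a median of 95.7 (11.1 to 136.7). Unbacked peaks had a median of 85.0 (3.38 to 124.5), and all ranked candidates had a median of 24.9. The ranges overlapped throughout, although every peak with a signal above 143.9 was backed by both replicates. At or above the list's median of 93.7 lay 163 of 204 backed peaks (79.9%) and 64 of 241 unbacked peaks (26.6%). The authors' q values gave no such order. Their -log10 q had a median of 1.28 and a mean of 1.24 in backed peaks, and 1.34 and 1.22 in unbacked peaks. The highest was 1.74 in backed and 1.49 in unbacked peaks, while 125 of 204 backed (61.3%) and 95 of 241 unbacked peaks (39.4%) had a q above 0.05.

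**Figure D1:**
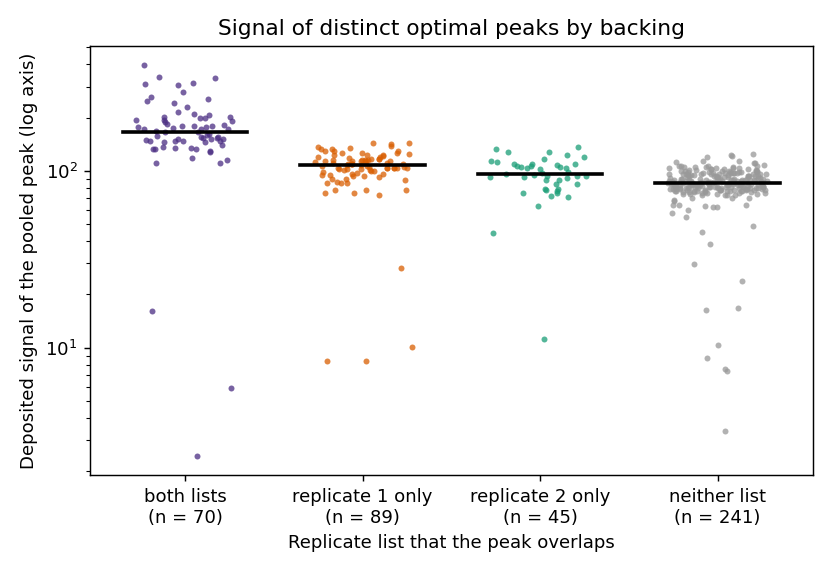
Deposited signal of each distinct optimal peak on a log axis, by the replicate list that the peak overlaps; each point is a peak and each bar is the class median. Medians step down from 167 for both lists to 107.9, 95.7 and 85.0 for replicate 1 only, replicate 2 only and neither list. In the same order of classes, 3, 3, 1 and 8 peaks have a signal under the candidates' median of 24.9.

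Each replicate's own ranked list gives its signal where the pooled peak lies. Peaks backed by both had a median of 96.0 in replicate 1's list and 70.5 in replicate 2's. Peaks backed by replicate 1 only had medians of 66.7 and 42.5, and those backed by replicate 2 only had 42.5 (44 peaks with a candidate) and 55.2. Unbacked peaks had 47.5 and 38.5 (238 peaks with a candidate in each list). The single-replicate classes were high in the replicate that backed them and near the unbacked level in the other. This order largely follows from how the classes were made, with a thresholded peak in 1 replicate and none in the other. The scales of the lists may differ, because no normalisation between them is stated.

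The ranked list that sets the replicates side by side holds a signal from each of its compared lists, without naming them. Of its 82563 records in the first compared list, 47018 equalled a record of replicate 1's own list and 0 one of replicate 2's, and in the second 47577 equalled a record of replicate 2's and 0 one of replicate 1's. Median values there were 96.0 and 70.5 for peaks backed by both, 66.7 and 42.5 for replicate 1 only, 42.5 and 55.2 for replicate 2 only and 47.5 and 38.1 for unbacked peaks. These largely repeat the values of the replicates' own lists and are not separate support. The first value was at least 1.5 times the second for 52 of 89 peaks backed by replicate 1 only, 3 of 45 backed by replicate 2 only and 60 of 241 unbacked peaks. The reverse held for 2, 17 and 9 of them.

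**Figure D2:**
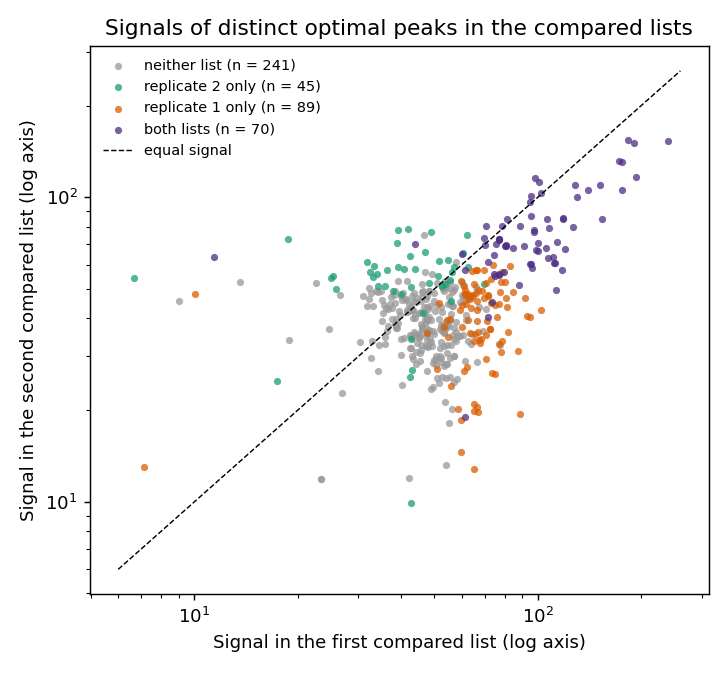
Signal of each distinct optimal peak in the first compared list against the second, both on log axes, with a dashed line at equal signal. Peaks backed by both lists reach the highest values on both axes, peaks backed by replicate 1 only lie mostly below the line and those backed by replicate 2 only mostly above it, and unbacked peaks fill the range around their medians of 47.5 and 38.1. The split about the line largely follows from how the classes were made.

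The single-replicate classes were not absent from the other replicate. All 89 peaks backed by replicate 1 only overlapped a ranked candidate of replicate 2, and 44 of the 45 backed by replicate 2 only overlapped one of replicate 1. Their -log10 IDR in that other list had medians of 0.844 and 0.679, short of the value of 2 that an IDR of 0.01 corresponds to. This shortfall follows from the rule, for unbacked peaks too, because a peak that reached 2 would in general be on the thresholded list. Unbacked peaks overlapped a candidate in 238 of 241 cases in each replicate's list, with medians of 1.08 in replicate 1 and 0.757 in replicate 2. Between the replicates, in the ranked list that compares them, 68 of 70 peaks backed by both (97.1%) had an IDR of 0.01 or less. The same held for 72 of 89 backed by replicate 1 only (80.9%), 29 of 45 backed by replicate 2 only (64.4%) and 157 of 241 unbacked peaks (65.1%). These are also the peaks that the smaller conservative list shares with the optimal list.

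The median distance between the compared summits was 21.5 bp for peaks backed by both, 34 bp for replicate 1 only, 45 bp for replicate 2 only and 35 bp for unbacked peaks. Within 50 bp lay 60 of the 70 pairs backed by both (85.7%), 66 of the 89 backed by replicate 1 only (74.2%), 26 of the 45 backed by replicate 2 only (57.8%) and 164 of the 241 unbacked pairs (68.0%). Some peaks backed by both were narrow, down to 76 bp, while every peak of the other classes was 304 bp wide.

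The overlap threshold of 1 bp was not a close call for most peaks. Backed peaks overlapped their best replicate peak by 58 to 296 bp (median 280), and 195 of 204 did so over at least 50% of their own width. The shortest overlap, 58 bp, was at an exon of sea-2 itself (chrII:3964616-3964919, signal 44.5, backed by replicate 2 only). The next, 76 bp, spanned a whole 76-bp peak in an intron of ints-8, an Integrator subunit gene (signal 206). Just outside, the nearest unbacked peak was 213 bp from a replicate 1 peak, near Y51H7C.12 (signal 79.9). Another was 239 bp away near T27C5.10, with its summit inside the ribosomal RNA gene rrn-4.15 (95.4). It was followed by one 298 bp away at the Mediator subunit gene mdt-26 (103.6). Of the unbacked peaks 8 lay within 1000 bp of a replicate's peak, and the median gap was 134177 bp.

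Backed peaks of very low signal lay beside stronger ones. Of the 204, 7 had a signal under the candidates' median of 24.9, and all 7 overlapped a stronger pooled candidate and shared their replicate peak with a stronger optimal peak. In the muscle gene dim-1 such a peak had a signal of 10.1 beside a candidate of 109.1. In sulp-3, a sulfate permease family gene, a peak at chrX:8404555-8404858 had a signal of 5.92 and the replicate values, 77.3 and 72.8, of its neighbour over a tRNA gene (signal 152.7). The weakest, in an intron of let-526, a SWI/SNF subunit gene, had a signal of 2.45 beside a candidate of 111.5. Unbacked peaks had 8 such cases, all of which overlapped a stronger candidate.

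With all distinct peaks, backed peaks lay more often between protein-coding genes and less often in their exons than unbacked peaks. Most of the alternatives lost these calls, and no difference was detected in promoters. Only protein-coding genes defined the locations, so a summit called intergenic could lie inside a gene of non-coding RNA. Location was not used to choose the backed peaks. It was tested on distinct peaks by Fisher's exact test, two-sided, with Benjamini-Hochberg adjustment over 4 locations. Peaks are not biological replicates, so each p describes sets of peaks from the same animals. Intergenic summits made up 61 of 204 backed peaks (29.9%) and 43 of 241 unbacked peaks (17.8%), an odds ratio of 1.96 (95% interval 1.23 to 3.15; Fisher's exact test, adjusted p = 0.0136). Exons of protein-coding genes held 17 backed (8.33%) and 38 unbacked summits (15.8%), an odds ratio of 0.486 (0.248 to 0.918; Fisher's exact test, adjusted p = 0.0409). Promoter windows, from 1000 bp upstream to 200 bp downstream of a protein-coding start, held 80 backed (39.2%) and 96 unbacked summits (39.8%), an odds ratio of 0.975 (0.653 to 1.45; Fisher's exact test, adjusted p = 0.923). In introns lay 46 (22.5%) and 64 (26.6%), with an odds ratio of 0.806 (0.508 to 1.27; Fisher's exact test, adjusted p = 0.504).

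Among candidates outside the optimal list, promoters held 20.8%, exons 29.99%, introns 27.9% and intergenic sequence 21.4%. The intergenic call was lost with replicate 2's list alone (29.6%, beside 17.8% of unbacked peaks; adjusted p = 0.0544 by Fisher's exact test), with replicate 1's list alone (27.7%; adjusted p = 0.0510) and with the conservative list (28.5% against 21.5%, adjusted p = 0.209). The exon call was lost with replicate 2's list alone (9.57%, Fisher's exact test, adjusted p = 0.277) and held with replicate 1's (6.29%, adjusted p = 0.0176). With both lists required, neither call held (intergenic 24.3%, adjusted p = 0.465; exon 5.71%, adjusted p = 0.118; both by Fisher's exact test). Of 11 alternatives run, 8 lost the intergenic call and 6 the exon call, and all kept the direction.

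**Figure D3:**
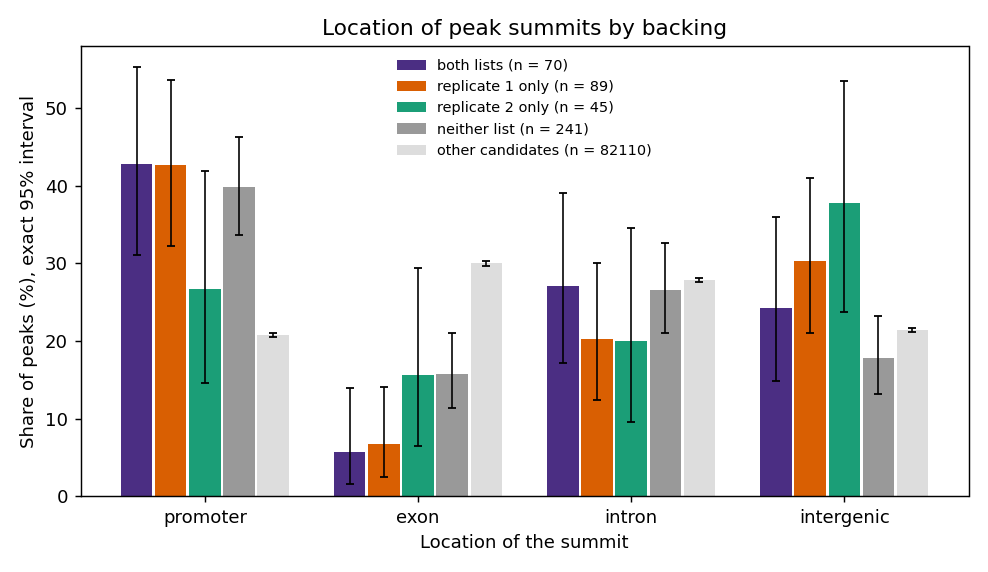
Share of summits in each location, in percent with exact 95% intervals, for peaks backed by both lists, by replicate 1 only, by replicate 2 only and by neither, and for candidates outside the optimal list. Intergenic shares are 24.3%, 30.3% and 37.8% in the backed classes against 17.8% for neither, and exon shares are 5.71%, 6.74% and 15.6% against 15.8%.

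Between peaks backed by replicate 1 only and by replicate 2 only, no difference in location was called, and peaks backed by both were not tested against either. Promoter shares were 42.9% with both replicates, 42.7% with replicate 1 only and 26.7% with replicate 2 only. For the single-replicate classes the adjusted p over the 4 locations ran from 0.253 to 1 (Fisher's exact test). In comparisons added to those of all backed peaks, peaks backed by replicate 2 only were more often intergenic than unbacked ones, with 17 of 45 (37.8%) and an odds ratio of 2.78 (1.31 to 5.82; Fisher's exact test, adjusted p = 0.0187). For replicate 1 only, 27 of 89 were intergenic (30.3%), an odds ratio of 2.00 (1.09 to 3.62) that failed after adjustment (adjusted p = 0.0865 by Fisher's exact test).

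Within ranges of signal, no difference in location between backed and unbacked peaks was called. Among peaks at or above the median signal, intergenic sequence held 49 of 163 backed (30.1%) and 17 of 64 unbacked summits (26.6%), a difference that missed the threshold (adjusted p = 1 by Fisher's exact test). Exons held 10 (6.13%) and 5 (7.81%) of them (adjusted p = 1 by Fisher's exact test). Among peaks under the median, intergenic sequence held 12 of 41 backed (29.3%) and 26 of 177 unbacked summits (14.7%; Fisher's exact test, p = 0.0382, adjusted p = 0.153). Exon shares there were 17.1% and 18.6%, both above those of the stronger peaks. The exon shares of backed and unbacked peaks thus lay closer together within each range than over all peaks, and the intergenic share of backed peaks was near 30% in both. Backed peaks made up more of the stronger range, and the part of signal in the difference was not tested.

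**Figure D4:**
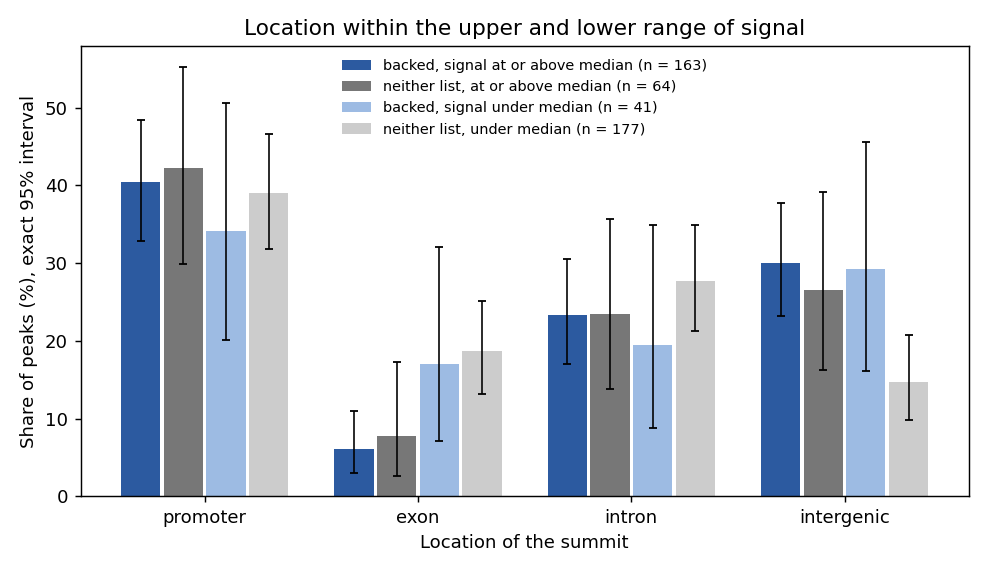
Share of summits in each location, in percent with exact 95% intervals, for backed and unbacked peaks at or above and under the median signal. Exon shares are 6.13% and 7.81% at high signal and 17.1% and 18.6% at low signal, and the intergenic share is 14.7% for unbacked peaks of low signal against 26.6% to 30.1% in the other sets.

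The 61 intergenic backed peaks were a mixed group. On chromosome X lay 23 of them, 19 were within 500 bp of a small RNA gene, 13 of these near a tRNA gene, and 11 were inside an annotated non-coding RNA gene. Of the 43 intergenic unbacked peaks, 13 lay on X, 10 near a small RNA gene, 7 near a tRNA gene and 3 inside a non-coding RNA gene. In 17 of the 61 and 9 of the 43, over 50% of the 31-mers near the summit were found elsewhere in the genome. The median distance to the nearest protein-coding start was 2386 bp for backed and 3033 bp for unbacked intergenic peaks. The strongest, both backed by both replicates, lay near K08F11.1 on chromosome IV. Their signals were 338.7 and 333.8, with replicate values of 190.0 and 150.9 for the first and 182.7 and 153.9 for the second. A peak 2003 bp upstream of sup-26, an RNA-binding protein gene with a role in sex determination, was the strongest backed by replicate 2 only (signal 136.7; 62.3 in replicate 1 and 75.1 in replicate 2).

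Of the 80 backed promoter peaks, 9 lay in promoter windows of ribosomal protein genes and 8 in those of chaperone genes, and most lay at genes of neither list. A summit could also lie in the window of another gene, listed or not. The summits of all 80 lay a median of 240.5 bp upstream of the nearest start, against 279 bp for the 96 unbacked ones, and 25 backed and 25 unbacked summits fell in windows on both strands. Ribosomal protein genes, which encode the subunits of the cytoplasmic ribosome, had 9 of the 80 backed promoter peaks, 2 of the 96 unbacked ones and 0.598% of promoter candidates. Chaperone genes, whose products fold other proteins, had 8 of 80, 0 of 96 and 0.329%. The 8 include both a strong and a weak summit at dnj-28 (signals of 114.2 and 8.44), which had the same replicate values. These lists were drawn up with earlier results of the same data in view, so they are described by counts without a test, and the 0 of 96 allows a share of up to 3.13% by counting error.

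Among ribosomal protein genes, 5 promoter peaks were backed by both replicates. The rpl-3 peak had a signal of 253.4, with 151.7 in replicate 1 and 109.6 in replicate 2. The rpl-15 peak followed at 231.2 (129.8 and 100.4), and rpl-35 at 172.9 (117.9 and 57.5). The peaks of rpl-20 (157.5) and rpl-7A (148.1) were closer to even between the replicates, at 84.5 and 68.0 for the first and 75.3 and 70.1 for the second. Peaks at rps-26 (143.9), rps-24 (115.7) and rpl-12 (115.5) were backed by replicate 1 only, and that at rps-1 (116.3), whose window is shared with the translational repressor gene ifet-1, by replicate 2 only. The rps-26 summit lay 411 bp from that gene's start, but 46 bp from the start of tmem-107 and 107 bp from the snoRNA gene F39B2.14. The unbacked pair, rps-19 (85.0) and rpl-24.2 (77.7), was weaker than all 9.

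Among chaperone genes the peak shared by the Hsp70 family genes F44E5.4 and F44E5.5 was the strongest, at 304.7, with 176.1 in replicate 1 and 130.5 in replicate 2. The DnaJ co-chaperone gene dnj-13 (146.3; 77.3 and 72.4) was also backed by both. The rest were backed by replicate 1 only. The chaperonin subunit gene cct-8 had 137.1 (78.4 and 56.9), with its start 433 bp from the summit and that of Y55F3AR.2 nearer, at 188 bp. The endoplasmic reticulum Hsp70 gene hsp-3 had 132.6 (66.4 and 57.7). The gene dnj-28 had 114.2 (72.8 and 36.8), with a second weak summit at 8.44. The peak at hsp-1 had 110.5 (62.4 and 48.1), and that at the mitochondrial chaperonin gene hsp-60 had 105.5 (62.7 and 46.7). In all of these peaks replicate 1's value was above replicate 2's. Across all backed peaks the first compared value was the higher in 156 of 204.

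The other gene lists had from 0 to 3 promoter peaks in each set, counts too small to read an order from. The translation factor list had 1 of 80 backed promoter peaks, the one at ifet-1, and 1 of 96 unbacked, at eif-2Bgamma, a gene for a subunit of the initiation factor eIF2B (114.3), against 0.246% of promoter candidates. The heterochronic list had 2 backed peaks, at the microRNA cofactor gene nhl-2 (215.3; both replicates) and the Pumilio family gene puf-9 (79.0; replicate 2 only, 25.1 in replicate 1 and 54.2 in replicate 2), and 1 unbacked peak at lin-66 (79.0). These were 2.50% of backed and 1.04% of unbacked promoter peaks, against 0.0763% of promoter candidates. The splicing list had 1 backed peak, at the helicase gene mog-4 (241.2; both replicates), and the transcription factor list had 1, at the nuclear receptor gene nhr-255 (74.9; replicate 1 only), beside 2 unbacked ones at nhr-141 and unc-42. A tRNA gene also lay within 500 bp of the nhr-255 summit. Splicing genes held 0.205% of promoter candidates, and transcription factor genes held 2.29%, above their 1.25% of backed and 2.08% of unbacked promoter peaks. Histone genes had 0 of 80 backed and 3 of 96 unbacked promoter peaks, at the pair his-61 and his-62 (106.2), at his-37 (96.6) and at the pair his-5 and his-6 (70.3), against 0.346% of promoter candidates. The muscle list had 0 backed and 1 unbacked peak, at the actin gene act-4 (96.2), against 0.188%. Sex determination, collagen, major sperm protein and proteasome genes had 0 in both sets, where 0 of 80 allows a share of up to 3.75%, above their 0.0939% to 0.909% of promoter candidates.

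Small RNA genes lay under part of both sets, and no class of them passed the test for all backed peaks. A tRNA, snoRNA, snRNA, miRNA or rRNA gene lay within 500 bp of 51 of 204 backed summits and 49 of 241 unbacked ones. Summits near tRNA genes numbered 21 (10.3%) among backed and 30 (12.4%) among unbacked peaks, an odds ratio of 0.807 (0.424 to 1.52; Fisher's exact test, adjusted p = 0.744), against 0.790% of candidates. Summits near snoRNA genes, which encode guides for modifying other RNAs, numbered 20 (9.80%) and 13 (5.39%), an odds ratio of 1.90 (0.874 to 4.28; Fisher's exact test, adjusted p = 0.507), against 0.479% of candidates. Summits near snRNA genes numbered 7 (3.43%) and 4 (1.66%), an odds ratio of 2.10 (0.525 to 9.94; Fisher's exact test, adjusted p = 0.744), against 0.142% of candidates. For peaks backed by both replicates, the snoRNA share of 11 in 70 (15.7%) passed against unbacked peaks (adjusted p = 0.0445 by Fisher's exact test). The share did not pass when replicate 1 was left out (13.04%) or replicate 2 was (10.1%). Of these 70 peaks, 67 had a signal at or above the list's median, against 64 of 241 unbacked ones. In that range 18 of 163 backed (11.0%) and 6 of 64 unbacked summits (9.38%) lay near snoRNA genes. Under the median they were 2 of 41 (4.88%) and 7 of 177 (3.95%). No difference was called in either range, and peaks backed by both were not tested separately there.

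Backed peaks at tRNA genes were mostly on chromosome X. On X lay 18 of the 21 (85.7%, exact 95% interval 63.7 to 97.0%), against 14 of the 30 unbacked ones (46.7%, 28.3 to 65.7%), a difference seen in the values and not tested. The 18 include both sulp-3 peaks, of signal 152.7 and 5.92, which lie at the same tRNA gene. The share on X was not counted for all annotated tRNA genes or for candidates near them. The strongest backed peak covered the tRNA gene WBGene00014333 in an intron of him-4 (signal 166.03; 107.3 in replicate 1 and 63.3 in replicate 2). The next lay 47 bp from WBGene00023110, nearest to M02F4.2 (154.9; 95.7 and 60.4), and over WBGene00023042 in sulp-3 (152.7; 77.3 and 72.8). All 7 tRNA peaks backed by replicate 2 only were on X, among them those nearest to dot-1.4, a histone methyltransferase family gene (128.4; 60.7 and 65.6), and unc-115, an actin-binding protein gene (122.8; 41.9 and 78.4). Inside the tRNA gene itself lay 14 of the 21 backed and 15 of the 30 unbacked summits. Among stronger peaks alone, 16 of 163 backed (9.82%) and 14 of 64 unbacked (21.9%) lay near a tRNA gene, a difference that failed the adjusted threshold (p = 0.0274 by Fisher's exact test, adjusted p = 0.137).

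Near snoRNA genes, 10 of the 20 backed peaks lay in introns of protein-coding genes and 7 in promoter windows. The strongest was inside C51F7.4 in frm-7, a FERM domain gene (signal 316; 192.8 in replicate 1 and 116.3 in replicate 2). It was followed by one 8 bp from ZK994.7 in the peroxidasin gene pxn-1 (279.2; 176.3 and 105.3) and one 47 bp from W03C9.9 (195.2; 95.02 and 96.3). All 3 were backed by both replicates. Near snRNA genes the strongest was in an intron of the dynein heavy chain gene dhc-4 (179.8; 112.5 and 60.8), over a gene whose name, R07E5.16, the annotation gives to several loci. Others were over sls-2.4, 655 bp upstream of egg-5 (176.6; 105.3 and 67.9), and 37 bp from sls-2.1 (172.3; 100.2 and 66.4), genes of the SL2 spliced leader RNA that is joined to downstream messages of operons. The miRNA genes had 2 backed peaks (0.980%) and 1 unbacked peak (0.415%), against 0.314% of candidates, and rRNA genes had 1 of each (0.490% and 0.415%), against 0.00731%. Both rRNA peaks belonged to the same gene, rrn-4.15, with the unbacked summit inside it and the backed one 450 bp away.

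Backed and unbacked peaks were spread over all 6 chromosomes, and no chromosome passed the test. Chromosome X held 48 of 204 backed (23.5%) and 40 of 241 unbacked peaks (16.6%), an odds ratio of 1.54 (0.942 to 2.54; Fisher's exact test, p = 0.0738, adjusted p = 0.221). Chromosome V held 41 (20.1%) and 67 (27.8%), an odds ratio of 0.654 (0.408 to 1.04; Fisher's exact test, p = 0.0604, adjusted p = 0.221). For the other chromosomes the adjusted p was 0.291 or more (Fisher's exact test). Away from tRNA genes, X held 30 backed and 26 unbacked peaks.

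In a further comparison added to that of all backed peaks, and repeated under no alternative, peaks backed by replicate 2 only were more often on X than unbacked peaks, with 16 of 45 (35.6%) and an odds ratio of 2.76 (1.28 to 5.84; adjusted p = 0.0404 by Fisher's exact test). Of these 16, 9 were away from tRNA genes. For replicate 1 only the share was 17 of 89 (19.1%; Fisher's exact test, adjusted p = 0.935). Set directly against each other, the single-replicate classes gave no called difference in their share on X (odds ratio 0.431, 0.177 to 1.04; Fisher's exact test, p = 0.0549, adjusted p = 0.330). Promoter shares by chromosome are given without a test. The backed share was the higher on III (19 of 29 backed and 11 of 29 unbacked peaks) and on I (18 of 29 and 14 of 39). It was the lower on IV (10 of 30 and 15 of 24), II (9 of 27 and 20 of 42), V (13 of 41 and 25 of 67) and X (11 of 48 and 11 of 40).

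**Figure D5:**
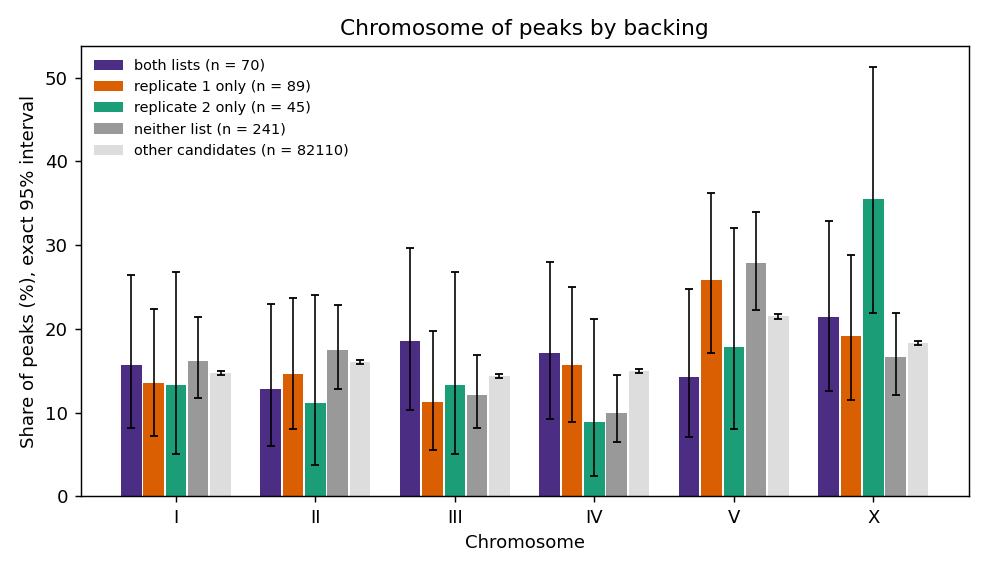
Share of summits on each chromosome, in percent with exact 95% intervals, for peaks backed by both lists, by replicate 1 only, by replicate 2 only and by neither, and for candidates outside the optimal list. On X the shares are 21.4%, 19.1% and 35.6% in the backed classes, 16.6% for neither and 18.3% for other candidates.

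The DNA under backed and unbacked peaks had similar mean GC content. The share of G and C in windows reaching 100 bp to each side averaged 49.01% ± 7.19 (SD, n = 204 peaks) in backed and 49.3% ± 7.10 (SD, n = 241 peaks) in unbacked peaks, against 40.1% ± 7.08 (SD, n = 82110) in other candidates. The median number of CG dinucleotides was 13 and 12. In 29 of 204 backed (14.2%) and 21 of 241 unbacked peaks (8.71%), over 50% of the 31-mers recurred in the genome. Of all 6-mers, tested with both strands pooled, 0 (0.0%) differed between the sets at an adjusted p under 0.05 by Fisher's exact test. At an unadjusted p under 0.05 by the same test there were 114 (5.48% of those tested), 58 of them more frequent in backed peaks. That share is near the nominal level of 0.05, and the share to be met where no 6-mer differs was not computed. The lowest p belonged to GCACGA, in 17.2% of backed and 5.81% of unbacked peaks (p = 0.000205 by Fisher's exact test, adjusted p = 0.253).

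The motifs in capitals above were counted on both strands within 100 bp of the summit. The B box was in 28 of 204 backed (13.7%) and 26 of 241 unbacked windows (10.8%), against 2.16% of other candidates, and 16 of the 21 backed and 17 of the 30 unbacked tRNA peaks held it. GAGAGA was in 31.9% of backed, 24.5% of unbacked and 11.7% of candidate windows. CGCGCA was in 23.5%, 14.1% and 3.92%, with 21 of the 70 peaks backed by both replicates, and in 0 of the 21 backed and 0 of the 30 unbacked peaks near tRNA genes. Since these letters were chosen with earlier results known, the shares are descriptions, and a match does not show a binding site.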

How the data were processed

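The authors deposited 8 peak lists on ce11, per the file headers and labels: for each replicate and for the pooled replicates, ranked candidates and thresholded peaks. The deposited signal is the authors' peak caller value; its scale is not stated. The deposited lists also give -log10 q values and the -log10 IDR. For aligner, peak caller, read depth and removed regions the entry is: not given in the sources used here. Depth is unknown, and limits on counts cover peaks only. The p column was constant and left out.

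From these lists, overlaps, distinct summits (200 bp), locations in Ensembl 115 of WBcel235, distances to small RNA genes (500 bp) and 6-mers within 100 bp of the summit were computed. Fisher's exact test (two-sided) compared shares, with Benjamini-Hochberg adjustment within each family. Odds ratios are the conditional estimates and carry exact 95% intervals, intervals of shares are Clopper-Pearson, and all cover counting error only; the limit for a count of 0 is 3 counts. The tests were tested on simulated data. Scripts ran in Python 3.11.15 with pandas 2.3.3 for tables, scipy 1.17.1 for tests, numpy 2.4.6 and, for figures, matplotlib 3.10.9.

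The members, gene lists and motifs were chosen with earlier results of these data known. Named peaks are the 5 strongest of each class, the 3 strongest near tRNA, snoRNA and snRNA genes, the 5 weakest, promoter peaks of listed genes (up to 6 a list), the 3 shortest overlaps, the 3 nearest outside and the 5 strongest unbacked; not all are printed. Listed genes past the 6th and unbacked listed genes were named after their values were seen. Alternatives were other overlaps, windows, distances, lists and signal ranges, leaving out each replicate, and 3 chosen after seeing the data.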

Additional observations from a re-analysis of the deposited data

Results flagged for a closer look

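Thresholded replicate peaks with no counterpart in the optimal list are not used by any comparison. Replicate 1 had 10 of 167 such peaks, with signals of 50.1 to 69.9 (median 60.03) against a median of 73.04 over its whole list. Among them were peaks at gst-27, a glutathione S-transferase gene, and gpd-2, a glycolytic enzyme gene, and 1, near the chromodomain gene cec-4, was in the conservative list. Replicate 2 had 5 of 119, with signals of 26.2 to 76.05 (median 53.5), of which 0 were in the conservative list. Of these 15 peaks, 3 lay in or beside sea-2 at chrII:3953424-3953719, chrII:3952570-3952849 and chrII:3969598-3969877, the gene of which the strain carries added copies; the part of those copies was not tested. The genes named here were chosen after their values were seen.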

How the results depend on the processing

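No paired analysis was possible because there is 1 group. The number of backed peaks was 70 with both lists required and 41 under the median signal, and it ran from 115 to 159 when 1 replicate was left out. The intergenic share passed at 29.9% and did not pass at 24.3% (both lists required), 27.7 to 29.6% (single replicates), 28.5% (conservative list), 30.1% and 29.3% (at or above and under the median signal), and, in alternatives chosen after seeing the data, 27.5% without peaks near small RNA genes and 25.1% without repeated sequence. It was above the unbacked share in all of these. The exon share did not pass at 5.71% (both required), 6.13% and 17.1% (the signal ranges), 9.80% and 9.14% (the same added alternatives); over single replicates it was 6.29 to 9.57%, and it did not pass without replicate 1. The promoter share was above the unbacked one, with no test passed, at 40.0% (overlap of 50%), 42.9% (both required), 42.4% (conservative list), 29.4% (window of 500 and 100 bp), 44.4%, 42.9% and 40.5% (the added alternatives, the last without peaks that overlap a stronger candidate), and was 36.5 to 42.8% over single replicates. The intron share was 27.1% with both required, against 26.6% unbacked. The snoRNA share passed at 15.7% with both required and did not pass at 11.0% and 4.88% (at or above and under the median signal). Under the median signal the tRNA share was 12.2% against 9.04% and the snRNA share 0.0% against 1.13%. The cause of these changes was not tested. The X share and the count of 6-mers kept their side of the threshold in every alternative run. Depth is unknown, and small classes such as the 45 peaks backed by replicate 2 only limit what the tests can show.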

Other observations

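Annotated genes of other non-coding kinds were counted around the summits without a test. They were not counted around other candidates, so these counts have no background share beside them. Inside a gene of the annotation's ncRNA class lay 39 of 204 backed and 28 of 241 unbacked summits, and by class these were 10 of 70 with both replicates, 17 of 89 with replicate 1 only and 12 of 45 with replicate 2 only. Pseudogenes lay within 500 bp of 12 backed and 10 unbacked summits. Genes of piRNAs, small germline RNAs, lay within 500 bp of 2 backed and 9 unbacked summits.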
